A study of Drosophila melanogaster with 12 samples.

Results

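The genes described here are 8 temporal patterning genes of larval neuroblasts: Imp, chinmo and lin-28, which mark early stages, Syp, br and Eip93F, which mark late stages, and svp and cas, which act at the passage between them. They were chosen by their FlyBase symbols and matched to the gene identifiers of the count data, where all 8 were found among 17510 genes. The rule used no measured value, but the list was made with earlier results of these data known.

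Neuroblasts are the stem cells of the insect central nervous system. As they divide they pass through a fixed series of states, and each state gives its neurons a birth-order identity. In Drosophila larvae the RNA-binding proteins Imp and Syp form opposing gradients in these cells, Imp high in young neuroblasts and Syp high in old ones, and the level of the BTB zinc-finger protein Chinmo in newborn neurons follows Imp. A pulse of the steroid hormone ecdysone in mid-larval life promotes the passage to the late state, in which Broad and E93 (the products of br and Eip93F) are made. Neurons also keep transcripts of several of these genes after birth, so the RNA of a whole central nervous system holds both neuroblasts and neurons.

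Poly(A) RNA of central nervous systems (CNSs), dissected from larvae of instar 3, was sequenced in 2 experiments of 6 libraries. In the first, CTCF0 mutants were set against wildtype (WT). They were transheterozygous for a pair of independently isolated CTCF knock-out alleles and came from mothers without CTCF in their germline, so that the maternal product was missing too. In the second, Cp190KO mutants, transheterozygous for independent Cp190 knock-out alleles, were set against a WT control of their own, and maternal Cp190 may persist in these larvae. WT was the w1118 strain in both experiments. CTCF binds DNA and, by the study, recruits Cp190 to some chromatin boundaries, while most Cp190 sites keep the protein without CTCF. The comparisons ask which genes depend on each protein. Each group had 3 replicates of 60 pooled CNSs, of larvae not separated by sex. A change in bulk RNA cannot tell apart fewer cells of a type and less RNA per cell.

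Between 11652548 and 21522453 reads per library were counted on genes. Normalized counts are given as CPM, the usual scaling by library size. The detection floor was set at 3 counts, which is 0.139 to 0.257 CPM in these libraries and covers counting error only. CTCF fell by 4.17 on the log2 scale in CTCF0 libraries (SE 0.238, edgeR quasi-likelihood test, adjusted p = 6.49e-05 by Benjamini and Hochberg's method). Cp190 was at 24.3 to 40.9 CPM in the libraries labelled Cp190KO and at 24.6 to 47.4 CPM in their WT control (log2 fold change -0.22, SE 0.295, edgeR adjusted p = 0.81). By the study's methods the Cp190 open reading frame was deleted in these mutants, so counts near those of WT go against the label. Which stretches of the transcript the reads came from was not examined, since the counts are per gene. These libraries are therefore named by their label, and every direction given for them rests on that label. Defining markers of the CNS were present in every library, with all 6 neuroblast markers (such as dpn, mira and wor), all 6 neuronal markers (such as elav, nSyb and brp) and all 6 glial markers (such as repo) above 3 counts. One library labelled Cp190KO, replicate 3, had 375 genes with 1 to 3 counts, against 1738 to 2199 in the other 11.

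All members are protein-coding, and positions are given on dm6. Imp (FBgn0285926) lies on the minus strand of chromosome X from 10787869 to 10824277, and br (FBgn0283451) on the plus strand of X from 1575132 to 1664869. Syp (FBgn0038826), Eip93F (FBgn0264490) and svp (FBgn0003651) lie on the plus strand of 3R, from 20756729 to 20810726, from 21949114 to 22014539 and from 12258737 to 12302785. The minus strand of 3R holds cas (FBgn0004878) from 5712975 to 5716805. The plus strand of 2L holds chinmo (FBgn0086758) from 1651258 to 1704682, and lin-28 (FBgn0035626) lies on the plus strand of 3L from 5654681 to 5657384.

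What sets 5 members apart in structure is their length. The union of annotated exons covers 13.65 kb in Imp, 11.225 kb in Syp, 12.618 kb in chinmo, 20.201 kb in br and 12.686 kb in Eip93F, and 5.595 kb, 3.151 kb and 1.152 kb in svp, cas and lin-28. Syp has 20 annotated transcripts, br 16 and Imp 12, and the counts do not separate them. Exonic bases are shared with another gene in 3 members. Imp shares 1955 bp with lncRNA:CR45204, which had 0 counts in every library. br shares 189 bp with Mur2B on the opposite strand, which had 58 to 308 counts. svp shares bases with CG44037, which had at most 1 count.

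Per kb of exon, the late factor Syp had the highest level of the members. It reached 49.5 ± 7.60 CPM per kb (SD, n = 3) in the WT control of CTCF0 and 21.0 ± 4.21 CPM per kb in the WT control of Cp190KO, above every other member in every WT library of the same experiment. In the first WT control, chinmo (16.0 CPM per kb), cas (15.4), br (14.0), Eip93F (12.3) and Imp (10.5) followed, and each overlapped its neighbour in this order. In the second, cas (15.1 CPM per kb) lay above br (9.65), chinmo (7.38) overlapped br, and Eip93F (4.29) overlapped Imp (4.03). The nuclear receptor svp was low in both, at 3.57 and 3.11 CPM per kb, and lin-28 was at the detection floor. In CTCF0 and in the libraries labelled Cp190KO Syp again had the highest mean, at 41.8 and 28.4 CPM per kb, but it overlapped cas, the next in order, in both.

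**Figure D1:**
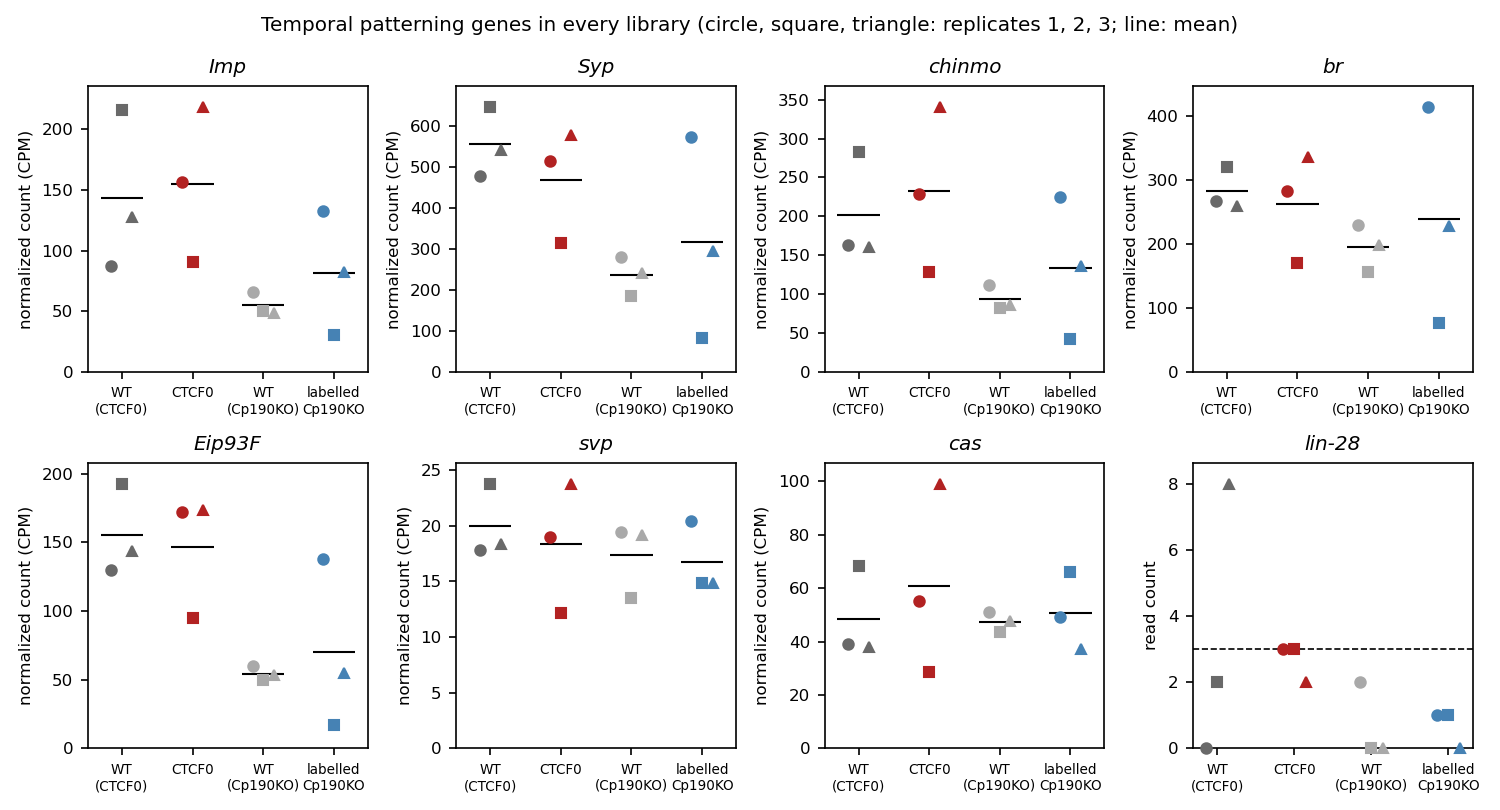
Each panel plots 1 gene. The vertical axis is its normalized count in CPM, or for lin-28 its read count, and each point is a library of the group named below it, with a line at the mean of 3 replicates (the broken line for lin-28 marks 3 counts). Mutant and WT libraries of the same experiment overlap for every gene, and replicates 1 and 2 labelled Cp190KO are the extremes for Imp, Syp, chinmo, br and Eip93F.

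Imp encodes the RNA-binding protein of young neuroblasts, which promotes chinmo expression. It stood at 87.0, 216 and 127 CPM in WT replicates 1, 2 and 3 of the CTCF0 experiment and at 157, 90.7 and 218 CPM in CTCF0. The lowest value was a WT library and the highest a CTCF0 library, and the groups overlapped throughout. In the second experiment Imp was at 66.1, 50.2 and 48.7 CPM in WT and at 133, 30.0 and 82.0 CPM in the libraries labelled Cp190KO. Here the WT libraries lay close together, between replicates 2 and 3 of the mutant. The log2 fold change was 0.12 in CTCF0 (SE 0.388, edgeR adjusted p = 0.96) and 0.57 in libraries labelled Cp190KO (SE 0.477, edgeR adjusted p = 0.709).

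The chinmo product, a BTB zinc-finger transcription factor, specifies early-born neurons in a dose-dependent way. Its values were 163, 283 and 160.4 CPM in WT and 229, 128.5 and 340.35 CPM in CTCF0. CTCF0 held both the lowest and the highest library. They were 111, 81.6 and 86.3 CPM in the other WT control and 224, 41.6 and 136 CPM in libraries labelled Cp190KO, again with both extremes in the mutant. Its log2 fold change was 0.20 in CTCF0 (SE 0.363, edgeR adjusted p = 0.91) and 0.53 in libraries labelled Cp190KO (SE 0.525, edgeR adjusted p = 0.758).

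The third early gene, lin-28, encodes an RNA-binding protein that in other animals blocks maturation of the let-7 microRNA. Its read counts were 0, 2 and 8 in WT and 3, 3 and 2 in CTCF0. In the second experiment they were 2, 0 and 0 in WT and 1, 1 and 0 in libraries labelled Cp190KO. Only 1 of the 12 libraries was above 3 counts, so lin-28 fell below the filter of 1 CPM in 3 libraries and no fold change is given. The other 7 members passed that filter in both experiments.

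Syp, the late RNA-binding protein that opposes Imp and restrains chinmo, had 477, 647 and 543 CPM in WT and 515, 314 and 577 CPM in CTCF0. Replicate 2 of CTCF0 was the lowest of the 6, and the other 5 libraries were mixed. In the second experiment Syp was at 279, 186 and 242 CPM in WT and at 575, 83.8 and 296 CPM in libraries labelled Cp190KO. The highest mutant library exceeded the lowest by 6.86 times, and all WT libraries lay between them. Syp had a log2 fold change of -0.24 in CTCF0 (SE 0.243, edgeR adjusted p = 0.829) and 0.43 in libraries labelled Cp190KO (SE 0.59, edgeR adjusted p = 0.811).

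br encodes the Broad zinc-finger factors, ecdysone-induced and made in late neuroblasts and their neurons. It had 267, 321 and 259 CPM in WT and 283, 170.3 and 335 CPM in CTCF0. The spread was between CTCF0 replicates 2 and 3. The other control stood at 230.0, 156 and 199 CPM and the libraries labelled Cp190KO at 413, 76.1 and 227 CPM, with replicates 1 and 2 of the mutant outside the WT range on opposite sides. The log2 fold change was -0.10 in CTCF0 (SE 0.249, edgeR adjusted p = 0.94) and 0.29 in libraries labelled Cp190KO (SE 0.528, edgeR adjusted p = 0.847).

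Eip93F encodes E93, an ecdysone-induced transcription factor of late neuroblasts. Its values were 130.2, 193 and 144 CPM in WT and 172, 94.6 and 174 CPM in CTCF0, where replicate 2 was the lowest of the 6 libraries and WT replicate 2 the highest. It was at 60.1, 50.1 and 53.1 CPM in the WT control of Cp190KO and at 138, 17.3 and 54.5 CPM in the mutant. This was the widest spread of any member, 7.96 times between replicates 1 and 2 labelled Cp190KO, while replicate 3 lay within the WT range. Log2 fold changes were -0.08 in CTCF0 (SE 0.264, edgeR adjusted p = 0.959) and 0.36 in libraries labelled Cp190KO (SE 0.631, edgeR adjusted p = 0.843).

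The switching factor svp, a nuclear receptor of the COUP-TF type, was the steadiest member in the second experiment. It had 17.8, 23.8 and 18.4 CPM in WT and 19.0, 12.2 and 23.8 CPM in CTCF0. It had 19.5, 13.5 and 19.2 CPM in WT and 20.5, 14.9 and 14.8 CPM in libraries labelled Cp190KO, where all mutant libraries but the highest lay inside the WT range. The log2 fold change was -0.12 in CTCF0 (SE 0.266, edgeR adjusted p = 0.931) and -0.06 in libraries labelled Cp190KO (SE 0.248, edgeR adjusted p = 0.94).

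The zinc-finger factor cas belongs to the embryonic series and is expressed again in young larval neuroblasts. It had 39.2, 68.2 and 38.0 CPM in WT and 55.2, 28.6 and 99.2 CPM in CTCF0. It varied by 3.47 times in this experiment, more than any other member there. In the second it had 51.2, 43.4 and 47.8 CPM in WT and 49.2, 65.9 and 37.1 CPM in libraries labelled Cp190KO. Replicate 2 labelled Cp190KO, the lowest library for the 5 long members, was the highest for cas. For cas it was 0.33 on the log2 scale in CTCF0 (SE 0.426, edgeR adjusted p = 0.876) and 0.10 in libraries labelled Cp190KO (SE 0.225, edgeR adjusted p = 0.878).

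In CTCF0 larval CNSs neither the early nor the late genes were called DE, that is, at an adjusted p-value under 0.05 with a fold change over 1.5. None of the 7 tested members passed (0 of 7), where 2.81% of the 8718 genes tested did, and 0 of 7 had an unadjusted p under 0.05 in edgeR, where 12.1% of all genes did. DESeq2 called 0 members as well. CTCF0 and WT libraries overlapped for all 7 members, while 17.4% of all genes had groups that did not. The median log2 fold change was -0.08 over the members and 0.01 over all genes tested. The 95% intervals set limits to what could have been missed. They ran from -0.80 to 0.31 for Syp and from -0.67 to 0.47 for br, and were widest for cas, from -0.64 to 1.31.

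In the libraries labelled Cp190KO the result was the same in calls. edgeR called 0 of 7 members, against 2.41% of the 8599 genes tested. At an unadjusted p under 0.05 there were 0 of 7, against 13.1% of all genes, and DESeq2 called 0. The groups overlapped for all 7 members, where 19.8% of all genes had groups that did not. The median log2 fold change was 0.36 over the members and 0.08 over all genes, but 0.30 over genes with at least 8 kb of exon, to which 5 members belong. The intervals were wide for the long members, from -0.56 to 1.70 for Imp, from -0.96 to 1.83 for Syp and from -1.13 to 1.85 for Eip93F. For Syp, chinmo, br and Eip93F they held changes past a fold of 1.5 in both directions, and for Imp a rise past it. Such changes are therefore not excluded by these libraries. The intervals were narrower for cas, from -0.43 to 0.62, and for svp, from -0.63 to 0.52. They still held a rise past that fold for cas and a fall past it for svp.

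This result for Imp and chinmo rested on replicate 2 labelled Cp190KO. Genes with at least 8 kb of exon, Imp and chinmo among them, were also lowest in that library. Their median log2 deviation from the mean of the 6 libraries was -0.89 there. The share of such long genes called in a fit that leaves it out was not computed. Without that library Imp was higher in the mutant by 0.96 on the log2 scale (edgeR adjusted p = 0.0379) and chinmo by 0.95 (edgeR adjusted p = 0.0325), and 2 of 7 members were called higher, where 2.09% of all genes tested in that fit were. Without replicate 1 the fold changes of Syp, chinmo, br and Eip93F turned negative, to -0.30, -0.06, -0.35 and -0.59, and no member was called.

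The changes in both mutants were also compared directly, as the CTCF0 change minus the Cp190KO change in a fit of all 12 libraries. No member differed (0 of 7 in edgeR, against 1.42% of 8954 genes; 0 of 7 at an unadjusted p under 0.05, against 6.89%, and 0 in DESeq2). The difference was -0.45 for Imp (95% interval -1.90 to 0.99), -0.67 for Syp (-2.14 to 0.80) and 0.24 for cas (-0.90 to 1.37) on the log2 scale, each with an edgeR adjusted p of 1. These intervals leave room for sizeable differences.

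**Figure D2:**
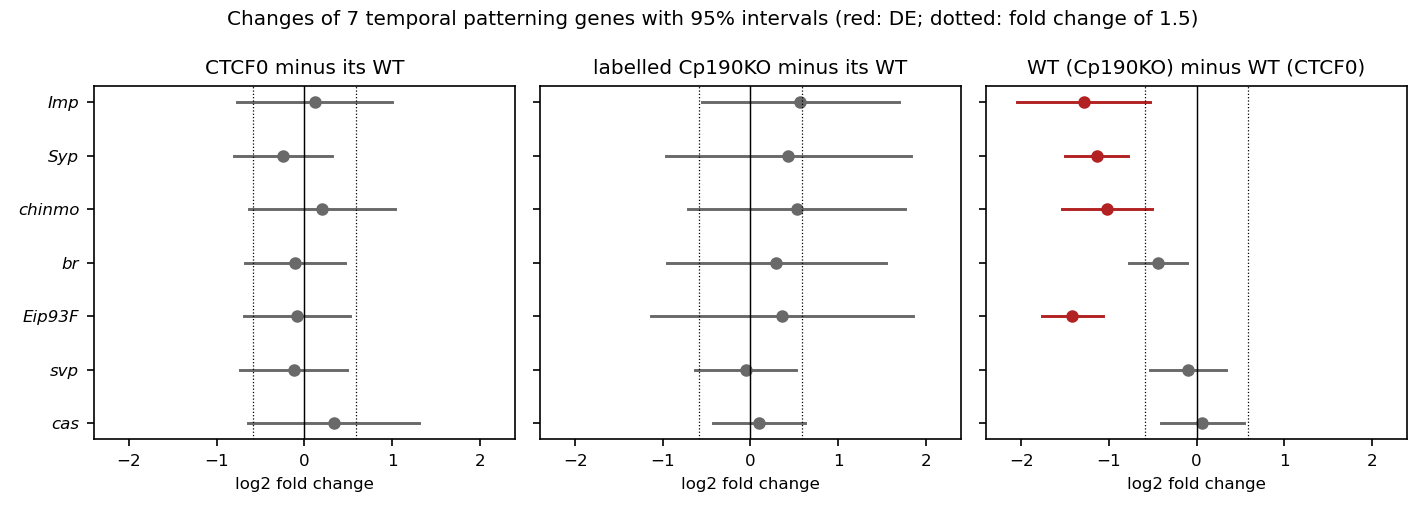
Horizontal axes give log2 fold changes and bars their 95% intervals for 7 genes in 3 comparisons (n = 3 libraries per group), with dotted lines at a fold change of 1.5 and red for genes called DE. No interval excludes 0 in either mutant, while Imp, Syp, chinmo and Eip93F lie below 0 and are called between the WT controls.

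Replicates of a single genotype differed widely at the members. In the Cp190KO experiment Imp varied by 4.43 times over the 6 libraries, Syp by 6.86, chinmo by 5.39, br by 5.43 and Eip93F by 7.96. The median gene varied by 1.75 times, and 3.43% of the 8599 genes varied at least as widely as Eip93F. All 5 were highest in replicate 1 and lowest in replicate 2 labelled Cp190KO. The short members had narrower ranges, of 1.52 times for svp and 1.78 times for cas. Of these, svp was also highest in replicate 1 labelled Cp190KO, at 20.5 CPM, but lowest in a WT library. The highest library for cas was replicate 2 labelled Cp190KO.

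The same swing was seen in other long genes. The 463 genes with at least 8 kb of exon, among which these 5 members count, had a median range of 3.80 times in this experiment. Their median deviation from the mean of the 6 libraries was 0.91 in replicate 1, -0.89 in replicate 2 and 0.21 in replicate 3 labelled Cp190KO on the log2 scale. The summed neuronal markers moved in the same order, at 1034, 237 and 652 CPM in replicates 1, 2 and 3, against 370 to 571 CPM in WT. The neuroblast markers summed to 319, 463 and 467 CPM there and to 363 to 592 CPM in WT, and did not follow that order. The part of exonic length or of neuronal RNA in the scatter of the members was not tested.

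In the CTCF0 experiment the swing was smaller. The 467 long genes had a median range of 2.18 times, and Imp varied by 2.51, Syp by 2.06, chinmo by 2.65, br by 1.97 and Eip93F by 2.04 times. Replicate 2 of CTCF0 was the lowest library for 6 of 7 members, and WT replicate 1 for Imp. The long genes had their lowest median deviation in that library (-0.53) and their highest in CTCF0 replicate 3 (0.45), and the neuronal markers summed to 472 and 1035 CPM there. WT replicates 1 to 3 had 615, 860 and 601 CPM of neuronal markers, and all 7 members were highest among the WT libraries in replicate 2.

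Markers of other cells moved as well. The sum of the 6 glial markers was higher in both mutants without overlap of the groups. It was 892 to 1149 CPM in CTCF0 and 604 to 761 CPM in WT. In the second experiment it was 1128 to 1604 CPM in libraries labelled Cp190KO and 856 to 931 CPM in WT. Single glial markers did not all follow the sum. In both mutants alrm and moody were higher without overlap, while nrv2 and wrapper overlapped. Gs2 overlapped in CTCF0 only. repo was higher in CTCF0 (log2 fold change 0.21) and lower in libraries labelled Cp190KO (-0.38). No glial marker was called in either mutant. All 6 muscle markers were above 3 counts in every library. They summed to 48.0 to 59.0 CPM in CTCF0 and 24.0 to 31.6 CPM in WT, without overlap. In the second experiment they summed to 42.2 to 118 CPM in libraries labelled Cp190KO and 57.0 to 74.3 CPM in WT, with overlap. Single muscle markers did not all follow the sum in CTCF0. Mhc, Act57B and Mlc2 were higher there without overlap, while up, wupA and Act87E overlapped. Of these only Mlc2 was called in CTCF0, higher by 2.82 times (edgeR adjusted p = 0.0306). In libraries labelled Cp190KO every muscle marker overlapped and none was called. The members' groups overlapped in both comparisons, and the part of glial and muscle RNA in their values was not tested.

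**Figure D3:**
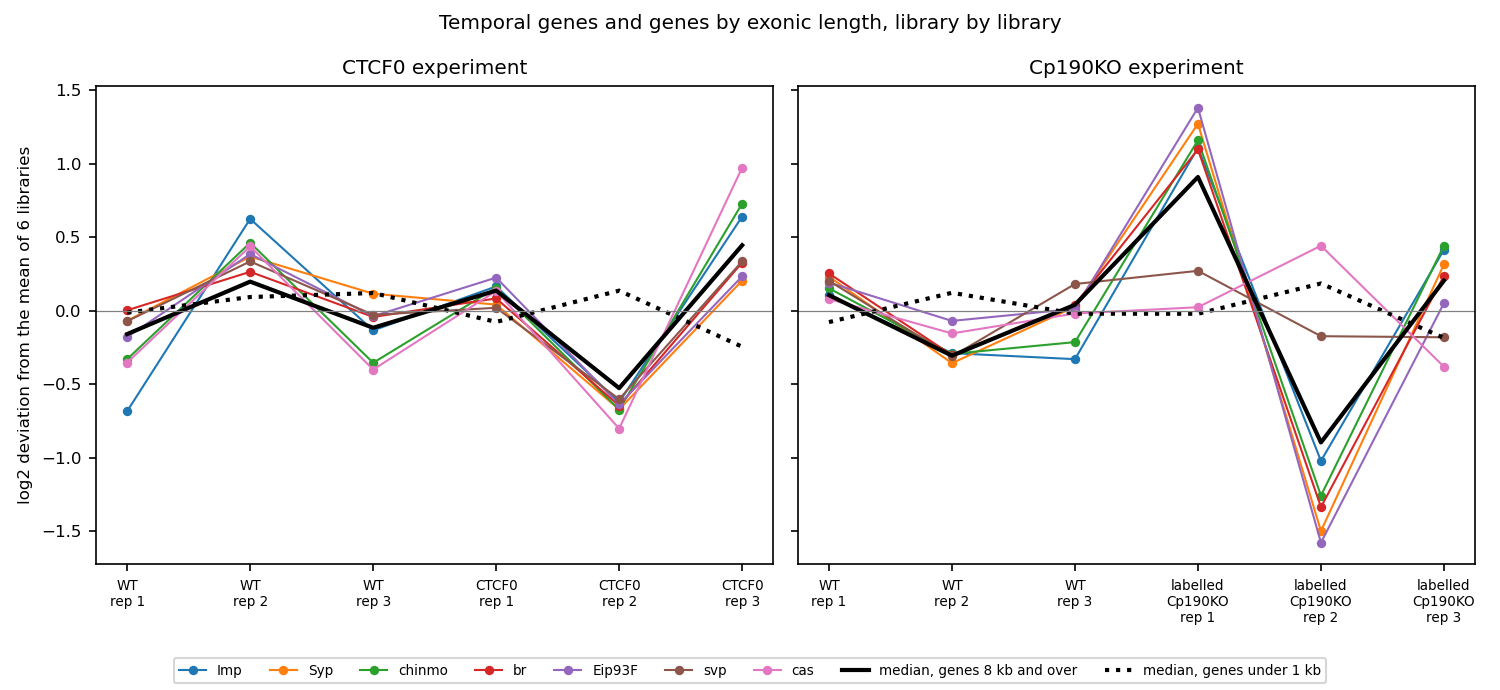
The vertical axis gives the log2 deviation of each gene from its mean over the 6 libraries of an experiment, with 1 library per position; lines only join the values of a gene. Heavy lines are medians of genes with at least 8 kb (solid) and under 1 kb (dotted) of exon. Imp, Syp, chinmo, br and Eip93F move with the long genes, from 0.91 to -0.89 in the median between replicates 1 and 2 labelled Cp190KO. In that experiment cas does not, and svp moves less, from 0.27 to -0.17 between these replicates.

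Ratios within a library take out only what 2 members share in equal measure, and here they are ratios of whole-CNS RNA. Imp over Syp, the balance that marks neuroblast age, was 0.250 ± 0.0771 (SD, n = 3) in WT and 0.324 ± 0.0478 in CTCF0. It was 0.236 ± 0.0346 in the other WT control and 0.289 ± 0.0640 in libraries labelled Cp190KO. The ranges were 0.182 to 0.334 and 0.289 to 0.378 in the first experiment and 0.201 to 0.270 and 0.231 to 0.358 in the second, so that the groups overlapped in both. On the log2 scale the mutant mean was higher by 0.41 in CTCF0 (0.20 to 0.64 with 1 library left out) and by 0.28 in libraries labelled Cp190KO (0.11 to 0.43). No test was made of a score over members.

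Syp varied by 6.86 times and Imp by 4.43 times between replicates 1 and 2 labelled Cp190KO, while their ratio was between 0.231 and 0.358 in all 3 libraries. The ratio still followed the swing in reverse. It was lowest in replicate 1 (0.231), where both genes were highest, and highest in replicate 2 (0.358), where both were lowest. In the WT control of CTCF0 the ratio was not steadier than Syp. There it ran from 0.182 to 0.334 while Syp varied by 1.35 times. Between the WT controls, which differed at both genes, the mean log2 ratio differed by -0.05. chinmo over Syp was 0.358 ± 0.0723 and 0.398 ± 0.0419 in the WT controls of CTCF0 and Cp190KO, 0.481 ± 0.0959 in CTCF0 and 0.449 ± 0.0538 in libraries labelled Cp190KO, and the groups overlapped in both experiments. chinmo over Imp was 1.48 in both groups of the first experiment, and 1.69 in WT and 1.58 in libraries labelled Cp190KO in the second. Of the 5 ratios computed, only Eip93F over Syp separated a mutant from its WT, at 0.301 to 0.335 in CTCF0 and 0.265 to 0.298 in WT, a log2 difference of 0.16. In libraries labelled Cp190KO the same ratio was lower than in WT by 0.16 on average, with overlap. The separation in CTCF0 was not tested. Between the WT controls br over Syp separated too, at 0.477 to 0.560 in the first and 0.819 to 0.842 in the second. That log2 difference of 0.70 was larger than any between a mutant and its WT in these ratios.

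**Figure D4:**
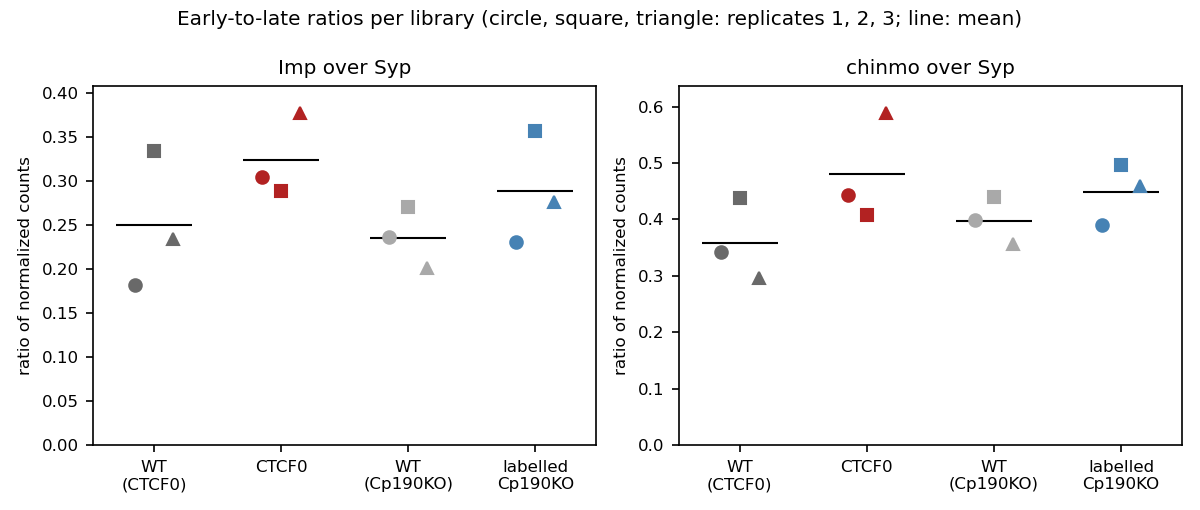
Vertical axes give the ratio of the normalized counts of Imp and of chinmo to those of Syp in each library, and lines the means of 3 replicates. The groups of each experiment overlap in both ratios, with mean Imp over Syp between 0.236 and 0.324 in all 4 groups.

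Unlike either mutant and its control, the WT controls differed from each other at 4 members. In a fit of these 6 libraries alone, the WT control of Cp190KO was lower than that of CTCF0 by 2.44 times for Imp, 2.21 times for Syp, 2.03 times for chinmo and 2.67 times for Eip93F. The log2 fold changes were -1.29 (SE 0.324, edgeR adjusted p = 0.0313), -1.14 (SE 0.164, edgeR adjusted p = 0.0014), -1.02 (SE 0.23, edgeR adjusted p = 0.0149) and -1.42 (SE 0.161, edgeR adjusted p = 0.000369). br was lower by 0.44 (edgeR adjusted p = 0.0577) and was not called. The factors svp (-0.10, edgeR adjusted p = 0.756) and cas (0.07, edgeR adjusted p = 0.853) had overlapping libraries and were not called.

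Thus 4 of 7 members were called lower, where 9.7% of the 8569 genes tested were. For 5 of 7, br included, the groups did not overlap, with the second control lower, as was so for 23.4% of all genes. The call of Imp was lost when WT replicate 3 of the first experiment or any 1 library of the second was left out (log2 fold changes of -1.19 to -1.42, edgeR adjusted p from 0.0514 to 0.0907), and that of chinmo without replicate 2 of the second (-0.93, edgeR adjusted p = 0.0678). Genes with at least 8 kb of exon had a median of -0.36 in this comparison, against 0.05 for genes of 2 to 4 kb, and 33.8% of them were called. The first experiment was read as paired ends and the second as single ends on another instrument. These and any difference in preparation or fly stock cannot be told apart. With an offset for exonic length the changes were smaller, at -0.71 for Imp, -0.67 for Syp and -0.90 for Eip93F, still called. With that offset chinmo (-0.49, edgeR adjusted p = 0.0367) fell short of a fold change of 1.5 and was no longer called. br turned to 0.15.

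Summed markers of several cell types differed between the WT controls as well, without overlap, though not every marker in a sum did. In the first and the second control, neuronal markers summed to 601 to 860 and 370 to 571 CPM and glial markers to 604 to 761 and 856 to 931 CPM. Muscle markers summed to 24.0 to 31.6 and 57.0 to 74.3 CPM, and those of the eye-antennal disc to 90.6 to 122 and 154 to 174 CPM. Within these sums the neuronal markers nSyb, Syt1 and brp overlapped (log2 fold changes of -0.06, -0.14 and 0.14). Glial alrm (-0.12), muscle wupA (-0.17) and gl of the eye-antennal disc (-0.26) overlapped too, with a sign opposite to their sum. Neuroblast markers overlapped, at 459 to 532 and 363 to 592 CPM. The part of these cell types in the difference at the members was not tested.

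The genes most like Imp, Syp and chinmo were sought by Pearson's r of log2 CPM over the 12 libraries, after each experiment's mean was subtracted. For Imp these were Rdl, a GABA receptor subunit (r = 0.986, Spearman's rho 0.986), mei-P26, a translational regulator of stem cell fate (r = 0.986, rho 0.972), and eIF4EHP, a cap-binding repressor of translation (r = 0.983, rho 0.979). For chinmo they were scrt, a zinc-finger factor of neurons (r = 0.995, rho 0.972), Syngr, a synaptic vesicle protein (r = 0.989, rho 0.986), and unk (r = 0.989, rho 0.937). For Syp the closest was ari-1, a ubiquitin ligase (r = 0.995, rho 0.944). It was followed by alpha-Cat, a junction protein (r = 0.994, rho 0.972), and rdx, an adaptor of a ubiquitin ligase (r = 0.994, rho 0.979). Of the genes named here only Rdl, mei-P26 and scrt have at least 8 kb of exon. The others are shorter, with 4.815 kb in ari-1, 3.487 kb in alpha-Cat, 6.511 kb in rdx and 2.71 kb in Syngr.

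The early and late members, opposed in neuroblasts, varied together across libraries. Imp and chinmo had r = 0.969, Imp and Syp r = 0.876, and Syp and br r = 0.992, the sixth highest for Syp among all genes. svp had r = 0.65 with Imp and 0.63 with Syp, and cas had r = 0.33 with Imp and 0.02 with Syp. All points share the libraries, with their depth and their swing in long genes. Without replicates 1 and 2 labelled Cp190KO, the libraries farthest from the median, r was 0.943 between Imp and chinmo, 0.762 between Imp and Syp, 0.962 between Syp and br, and rose to 0.731 between cas and Imp.

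Among other genes of the temporal series, too, none was called in either mutant with all libraries. A list of 29 held the embryonic series and its late factors (hb, Kr, nub, pdm2, grh, D), competence factors, the ecdysone response and the Activin branch upstream of it, heterochronic regulators, and targets. In CTCF0 all 29 were tested and 0 were called in either direction by edgeR, beside 2.81% of all genes. In edgeR 2 had an unadjusted p under 0.05, beside 12.1% of all genes, and DESeq2 called 0. The median log2 fold change was -0.10, against 0.01 over all genes. The lowest was Eip78C, an ecdysone-induced nuclear receptor, at 15.1 to 27.8 CPM in WT and 9.21 to 14.5 CPM in CTCF0 (log2 fold change -0.89, SE 0.291, edgeR adjusted p = 0.232). With dan, a nuclear competence factor (0.40, SE 0.153, edgeR adjusted p = 0.332), Eip78C was among 5 of the 29 whose groups did not overlap, as was so for 17.4% of all genes. The receptor of the hormone, EcR, was at 51.1 to 120 CPM in WT and 27.6 to 62.8 CPM in CTCF0 (log2 fold change -0.79, SE 0.372, edgeR adjusted p = 0.468), and its groups overlapped.

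In the libraries labelled Cp190KO 26 of the list were tested and 0 were called by edgeR, beside 2.41% of all genes. In edgeR 0 had an unadjusted p under 0.05, beside 13.1% of all genes, and DESeq2 called 0. Groups without overlap were found for 0 of the list, beside 19.8% of all genes. hb, Hr3 and the let-7 host transcript lncRNA:let7C were too low to be tested. The median was 0.20, against 0.08 over all genes, and the highest was ftz-f1, an ecdysone-responsive nuclear receptor (0.97, SE 0.549, edgeR adjusted p = 0.548). EcR had a log2 fold change of 0.36 there (SE 0.525, edgeR adjusted p = 0.82). Its difference between mutants was -1.15 (SE 0.688, edgeR adjusted p = 0.99), and 0 of the 29 list genes differed between mutants, beside 1.42% of all genes. Without replicate 2 labelled Cp190KO, 1 gene of the list, mei-P26, was called higher (0.97, edgeR adjusted p = 0.0393), beside 2.09% of all genes in that fit, and without replicate 2 of CTCF0 1 gene, the Activin receptor babo, was called higher in CTCF0, beside 3.48% of all genes. Between the WT controls 11 of 28 were called lower and 0 higher, beside 9.7% of all genes lower and 4.59% higher. Among them were lncRNA:let7C (-1.94, edgeR adjusted p = 0.0108), Myc (-1.73, edgeR adjusted p = 0.0209) and EcR (-1.10, edgeR adjusted p = 0.0342). The calls of Myc and EcR were lost without a filter on low counts (edgeR adjusted p = 0.0862 and 0.0878), and when 1 library was left out in 2 and 3 of 6 fits (edgeR adjusted p up to 0.0769 and 0.119). Without replicate 2 of the second control 6 list genes were called lower, beside 5.29% of all genes in that fit.

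**Figure D5:**
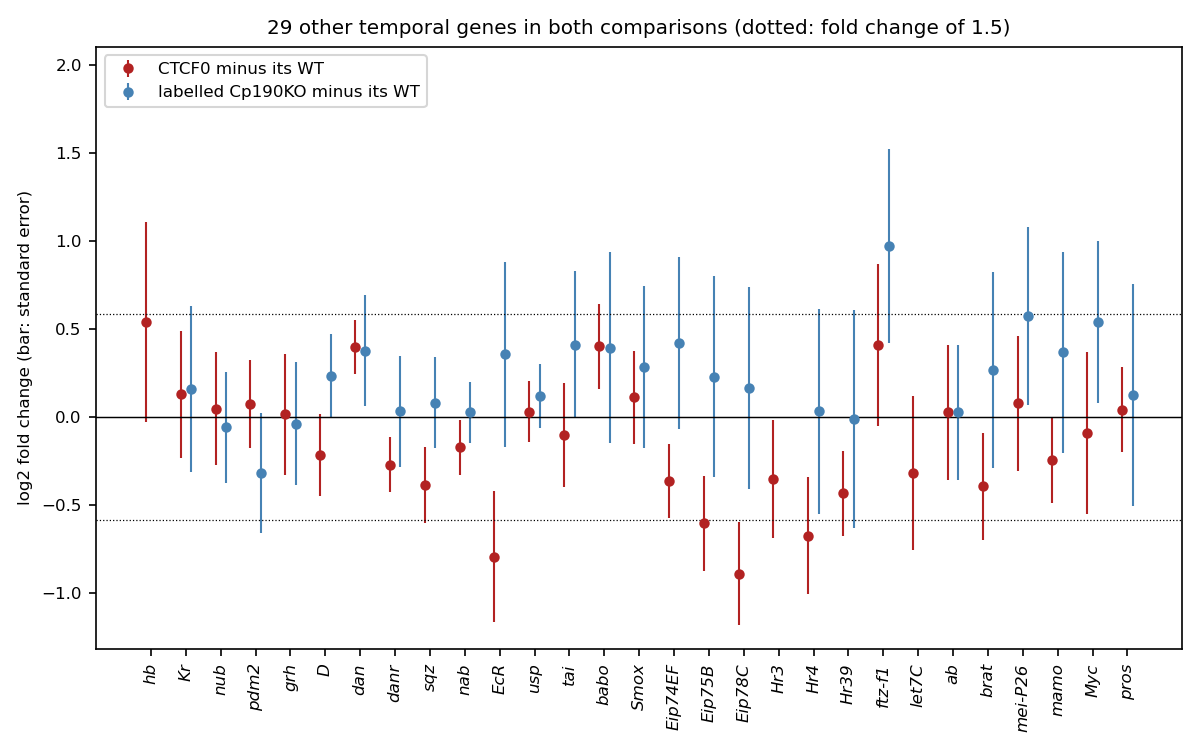
The vertical axis gives log2 fold changes with standard errors for 29 other temporal genes, in CTCF0 (red) and in the libraries labelled Cp190KO (blue, 26 tested), 3 libraries per group, with dotted lines at a fold change of 1.5. No gene is called in either mutant; Eip78C is lowest in CTCF0 at -0.89 and ftz-f1 highest in libraries labelled Cp190KO at 0.97.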

How the data were processed

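The deposited values are read counts per gene, which the authors made by mapping reads to dm6 and FlyBase r6.26 gene models with Micmap and counting with htseq-count 0.9.1. They are not normalized. The strand option and overlap mode are not given in the sources used here. Rows that name no gene (22.6% to 34.8% of each library) were left out.

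Counts were analysed with edgeR 4.0.16 in R 4.3.3. Each comparison kept the genes that reached 1 CPM in 3 or more of its libraries, with TMM scaling. A robust quasi-likelihood model was fitted to all genes kept, with two-sided tests and Benjamini-Hochberg adjustment over these genes. CPM values are on the TMM scale of their own experiment. A standard error is the log2 fold change divided by the square root of F, and intervals use edgeR's degrees of freedom. A pseudocount of 0.5 CPM was used for deviations and correlations. DESeq2 1.42.0, other scalings and filters, the replicate block, an offset for exonic length, a fit of all 12 libraries and each library left out were alternatives. The pipeline was tested on simulated data. Python 3.11.15 with pandas 2.3.3 gave the summaries.

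Exonic lengths come from an annotation of dm6 that lists 17405 of the genes. Labels gave each library its group. The replicates were biological triplicates. The members, the temporal list and the markers were chosen with earlier results of these data known. Named genes were the members, CTCF and Cp190, list genes called in either mutant and the 3 genes most like Imp, Syp and chinmo. List genes named with values beyond this rule were chosen after their values were seen. Fat body, muscle, ring gland, haemocyte, salivary gland and eye-antennal disc markers were summed too. The ring gland markers ranged from 12.0 to 265 CPM between WT libraries of the Cp190KO experiment, and Larp6L and nvd were not matched. CTCF binding and Hi-C data were not analysed here.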

Additional observations from a re-analysis of the deposited data

Results flagged for a closer look

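CTCF itself, the gene deleted in CTCF0, was alone among the members, the other temporal genes, CTCF and Cp190 in a change that differed between the mutants. Its log2 change in CTCF0 minus that in libraries labelled Cp190KO was -4.52 (SE 0.346, edgeR adjusted p = 1.89e-05), with 1.63 to 2.83 CPM in the CTCF0 libraries and 28.2 to 58.8 CPM in all libraries of the Cp190KO experiment.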

How the results depend on the processing

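No member was called in either mutant, nor did any differ between mutants, under any other scaling, filter, tool, offset or block. The number of DE genes over all genes moved more. In CTCF0 it was 245, and 392 with DESeq2, 382 without a filter and 145 with the replicate block. In libraries labelled Cp190KO it was 207, and 440 with DESeq2, 366 with all 12 libraries in one fit and 89 with the replicate block. The difference between mutants gave 127 genes, 213 with DESeq2 and 60 with the replicate block. Replicate numbers were not treated as pairs in the main fits. The correlation of same-numbered deviations was -0.161, -0.502 and -0.467 in the CTCF0 experiment and 0.052, 0.48 and -0.012 in the other. Not every library correlated best with its own number, though replicates 2 of the Cp190KO experiment did. With 3 libraries per group, these correlations do not settle whether same-numbered libraries were prepared together. The block changed no call of a member.

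Some small fold changes turned sign. Eip93F in CTCF0 was 0.0007 with library sizes only, and svp in the difference 0.0442. With the exonic length offset the Cp190KO changes of br, Eip93F, cas and mamo (a gene of the temporal list) were -0.0905, -0.12, -0.0046 and -0.0859, and those of br and svp between WT controls 0.15 and 0.16. Eip93F in libraries labelled Cp190KO was -0.0755 with the replicate block. The cause was not tested. Without a filter Imp lost its call between the WT controls (-1.27, edgeR adjusted p = 0.119).

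Leaving out 1 library at a time gave 90 to 556 DE genes in CTCF0, 24 to 318 in libraries labelled Cp190KO, 69 to 141 for the difference and 704 to 1475 between WT controls. Members called higher in libraries labelled Cp190KO numbered 0 to 2 and members lower between WT controls 2 to 4, and list genes higher 0 to 1 in CTCF0, 0 to 1 in libraries labelled Cp190KO and lower between WT controls 6 to 11. The log2 fold changes in CTCF0 ran from -0.21 to 0.50 for Imp, -0.17 to 0.49 for chinmo, -0.31 to 0.088 for br, -0.24 to 0.11 for Eip93F, -0.35 to 0.0588 for svp and -0.20 to 0.63 for cas. In libraries labelled Cp190KO they ran from 0.03 to 0.96 for Imp, -0.30 to 0.88 for Syp, -0.0579 to 0.95 for chinmo, -0.35 to 0.71 for br, -0.59 to 0.81 for Eip93F, -0.23 to 0.031 for svp, -0.14 to 0.29 for cas, -0.22 to 0.77 for EcR, -0.12 to 0.97 for mei-P26 and -0.34 to 0.81 for mamo. For the difference they ran from -0.81 to 0.0445 for Imp, -1.08 to 0.0188 for Syp, -0.72 to 0.22 for chinmo, -0.77 to 0.21 for br, -0.84 to 0.47 for Eip93F, -0.30 to 0.15 for svp and -0.31 to 0.57 for cas. Between WT controls they ran from -0.18 to 0.057 for svp and -0.0853 to 0.40 for cas. Members other than lin-28 had at least 172 counts in every library.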
